A study of Xenopus laevis with 4 samples.

Results

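Outside a set of known miRNA families, 8 of the 98 listed miRNAs were well measured: miR-26, miR-146b, miR-181b, miR-215, miR-193, miR-107, miR-191 and miR-22*. They were chosen by level. A miRNA entered when both libraries of at least one developmental stage held 300 or more CPM (reads of a miRNA scaled so that all listed miRNAs sum to 1000000) and it belonged neither to let-7 nor to 48 other families left out by number, such as miR-449, miR-427, miR-200 and miR-203. That level was reached by 50 miRNAs in all, of which 42 belonged to the families left out. A further 19 miRNAs outside those families stayed under it. Because the rule read the levels of all 4 libraries, the levels and their changes between stages are given as a description with no test.

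The libraries held small RNA of epidermal explants dissected from Xenopus laevis embryos, fertilized in vitro from eggs of NASCO females; the labels name no genetic change or drug. The groups were gastrula stage 11.5, labelled non ciliated, and tailbud stage 26, labelled ciliated. Each was a pool of 50 explants sequenced as 2 technical replicates, a and b, so the spread between libraries does not cover the spread between pools or clutches. Libraries b carry a source name one step later than their stage label, and the title, which matches the stage label, was used here. The stages are called early and late below, and values within a stage are given for library a and then for library b. Ciliation and age change together between the groups and cannot be told apart. Levels in whole explants also cannot separate fewer cells of a type from less RNA per cell.

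A miRNA is a short RNA cut from a hairpin precursor, and it guides an Argonaute protein to messenger RNAs that pair with its seed, here bases 2 to 8 from its 5′ end. Messenger RNAs bound in this way are translated less and decay faster. miRNAs with one seed therefore share most targets, and each hairpin can give a product from either arm. By tailbud stages the embryonic epidermis of the frog is a mucociliary epithelium with ciliated, secretory and ion-transporting cells.

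The mature sequences of the 8 miRNAs are shown first, because a shared seed would mean largely shared targets. Targets themselves were not examined, so different seeds do not show that targets differ. They are written 5′ to 3′ as the deposited table lists them, under Xenopus tropicalis names and with T for U, and capitals mark the seed.
miR-26: tTCAAGTAatccaggataggc
miR-146b: tGAGAACTgaattccatggact
miR-181b: aACATTCAttgctgtcggtggg
miR-215: aTGACCTAtgaaatgacagcc
miR-193: aACTGGCCcgcaaagtcccgcttc
miR-107: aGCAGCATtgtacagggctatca
miR-191: cAACGGAAtcccaaaagcagct
miR-22*: aGTTCTTCagtggcaagcttt

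No seed was shared within the group, where the 8 miRNAs had 8 different seeds. The other 90 listed miRNAs had 53. The rule largely fixed this, since it left out families by number and the rows sharing a seed with a member missed the level. The 8 miRNAs measured 21 to 24 bases (median 22, as in the other 90). Their GC content ran from 40.9% to 62.5%, the highest being miR-193, with a median of 45.3% against 43.2% in the others. A first base of A was found in 5 of the 8 (62.5%) and in 21 of the other 90 (23.3%), and a first base of T in 2 of the 8 (25.0%) and in 55 of the other 90 (61.1%). Members of a family share their seed and often, though not always, their first base, so these rows are not independent, and no test was made.

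Library depth set what could be seen. The early libraries held 22668 and 30406 miRNA reads, and the late libraries 46892 and 41878. miR-427, which in frog embryos helps to remove messenger RNA laid down in the egg, took 84.4% ± 3.80 (SD, n = 2) of the stage 11.5 reads and 7.26% ± 0.433 of those at stage 26, so few early reads were left for other miRNAs. Of markers of the labelled tissue, miR-203, known from skin, was at 6.13% ± 0.157 of stage 26 reads, and miR-449, known from multiciliated epithelia, at 38.8% ± 0.567. At stage 11.5, labelled non ciliated, they stood at 0.802% ± 0.144 and 4.24% ± 0.669 (SD, n = 2), and miR-449 ranked 2 of 98 there. miR-205a, also known from skin, was nearly absent, with 1 read in library b of stage 26 and none elsewhere, which gives no direction. A level of 300 CPM took 7 and 10 reads in the early libraries and 15 and 13 in the late ones. Intervals below are exact 95% intervals of counting error only, since reads copied by PCR cannot be told from separate molecules. Libraries of a stage could differ by more. At stage 11.5 miR-20b had 87 and 672 reads (5.76-fold in CPM) and miR-93a 78 and 379 (3.62-fold). Others agreed closely there, such as miR-17-5p within 1.03-fold.

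Together the 8 miRNAs were a small fraction of the pool. They held 76 and 79 early reads, 0.335% and 0.260% (mean 0.298%), and 891 and 971 late reads, 1.90% and 2.32% (mean 2.11%). With totals counted without miR-427, miR-428 and miR-302, here called totals without miR-427, the summed share was 2.62% and 1.44% at stage 11.5 and 2.07% and 2.50% at stage 26. On that scale the stages overlapped, and the early libraries differed more from each other than the stage means did (2.03% ± 0.840 and 2.29% ± 0.309, SD, n = 2). All 8 reached the level of 300 CPM at stage 26, and miR-26, miR-193 and miR-146b also reached it at stage 11.5. At 0 in both stage 11.5 libraries were 3 of the 8, namely miR-215, miR-107 and miR-22*. Of the 42 other miRNAs that reached the level, let-7a, miR-301, miR-182 and miR-10c were also at 0 in both, and the rest had early reads. Over all 98 listed miRNAs, many of them under the level, those with no early read shared rank 60 at stage 11.5. Early zeros were thus about as common over all rows as among the 8. Whether the zeros of these 3 come from depth was not tested. Of the 98 listed miRNAs, 53 and 52 had reads in the early libraries and 87 and 83 in the late ones.

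**Figure D1:**
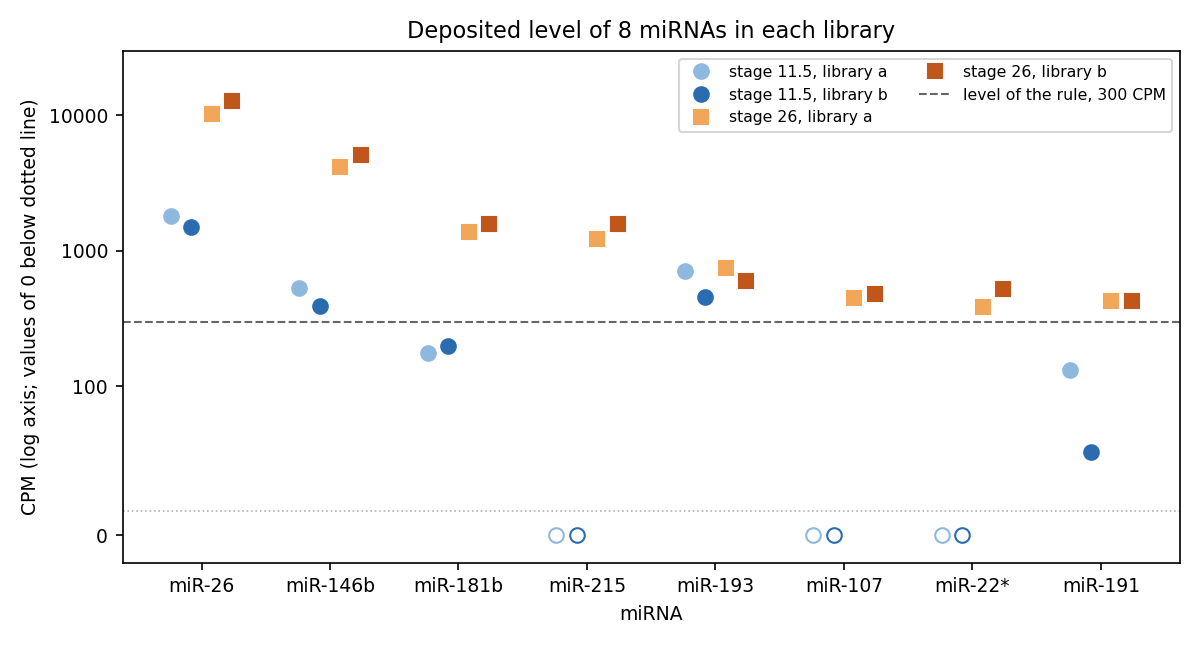
Level of the 8 miRNAs in each library, in CPM on a log axis, with values of 0 drawn as open symbols under the dotted line and the level of 300 CPM dashed. Circles are the 2 libraries of stage 11.5 and squares the 2 of stage 26; miR-193 is the miRNA whose circles and squares overlap, and miR-215, miR-107 and miR-22* lie at 0 in both early libraries.

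A pair of folds is given for each change. A fold in share compares the mean deposited CPM of the stages, and a scaled fold compares the means after division by TMM factors (trimmed mean of M values), which lowered the late stage relative to the early one by 4.05-fold, a log2 shift of 2.02. The shift depends on the library taken as reference and ran from 1.79 to 2.05. For a miRNA with no early read the fold is a bound, computed as if 3 reads had been seen in the early libraries together, which is 56.5 CPM in share. Such a bound depends on the assumed 3 reads and leaves out the counting error of the late reads, so it is not a strict minimum.

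By these folds, 4 of the 8 miRNAs were at least 2-fold higher at stage 26 after scaling with no overlap between the libraries of the stages, and 1 was at least 2-fold lower. The 4 were miR-215, miR-146b, miR-107 and miR-22*, and the 1 was miR-193. Of the 4, miR-215, miR-107 and miR-22* entered by bounds, of 6.20, 2.06 and 2.02. miR-107 and miR-22* thus passed 2-fold only narrowly, and through the assumed 3 early reads. Over all 98 listed miRNAs the same rule gave 17.3% higher and 20.4% lower, and over the 50 that reached 300 CPM it gave 34% higher and 26% lower. In deposited CPM 7 of the 8 were higher and none lower, against 54.1% higher and 9.18% lower over all 98 and 72% and 12% over the 50. On totals without miR-427, 1 was higher (miR-215) and 1 lower (miR-193), against 10.2% and 25.5% over all 98 and 20% and 34% over the 50. The median scaled log2 fold, bounds included, was 0.99 over the 8, 0.30 over the 50 and -0.14 over the 84 listed miRNAs with a fold. The rule selected on these levels, so nothing is read from these shares. The count rests on values near 2-fold: without library b of stage 11.5 it was 1, and without library a of stage 26 it was 6.

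**Figure D2:**
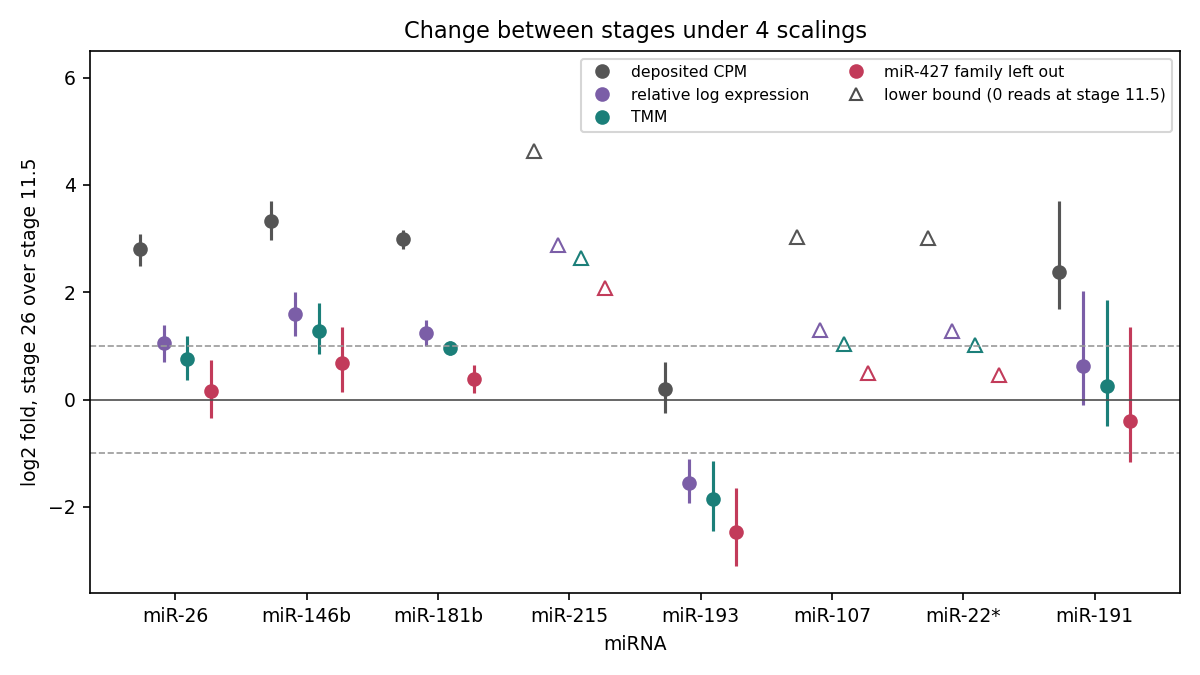
Change of each miRNA between stages, as log2 fold of stage 26 over stage 11.5, in deposited CPM and under 3 scalings. Points are ratios of stage means, lines span the 4 pairs of 1 library per stage, triangles are bounds against 3 assumed early reads, and dashed lines mark 2-fold. miR-193 lies below 0 under all 3 scalings and near 0 in deposited CPM, and miR-215 lies above the upper dashed line under all 4.

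miR-26 was the most abundant of the group at both stages. In vertebrates it is known for repressing Ezh2, a histone methyltransferase, and for lying in introns of Ctdsp phosphatase genes. It stood at 1809 and 1513 CPM (41 and 46 reads) in the early libraries and at 10215 and 12871 CPM (479 and 539 reads) in the late libraries. Both late libraries lay far above both early ones in share, and miR-26 moved from rank 19 to rank 13 among the 98 miRNAs. Its fold was 6.95 in share and 1.69 after scaling, with scaled folds from 1.28 to 2.28 over the 4 pairs of libraries. On totals without miR-427 the stages overlapped, at a fold of 1.11. It made up 56.1% ± 3.03 of the reads of the 8 miRNAs at stage 11.5 and 54.6% ± 1.24 at stage 26 (SD, n = 2), a difference within the spread of the libraries.

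miR-146b was the second at stage 26. In mammals the miR-146 family is known for damping innate immune signalling through Traf6 and Irak1. Its level was 529 and 395 CPM in the early libraries (12 reads in each) and 4180 and 5134 CPM in the late ones (411 reads in all). The stages did not overlap, and libraries of one stage differed by 1.34-fold at stage 11.5 and 1.23-fold at stage 26. The fold was 10.1 in share, the largest of the 5 members with reads at both stages, and 2.43 after scaling (1.79 to 3.49 over the 4 pairs). On totals without miR-427 it was 1.60 (1.10 to 2.54), still without overlap.

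miR-181b, of a family known in mouse from lymphocyte development, was at 176 and 197 CPM (4 and 6 reads) in the early libraries. At stage 26 it was at 1386 and 1576 CPM (65 and 66 reads). The stages did not overlap. Its fold was 7.92 in share and 1.95 after scaling (1.78 to 2.14 over the 4 pairs), just short of 2-fold. On totals without miR-427 it was 1.30 (1.09 to 1.56), still without overlap. The 10 early reads leave the pooled scaled ratio an interval of 1.04 to 4.21. Because miR-146b and miR-181b are also known from immune cells, a list of blood miRNAs is set beside them. Of its 6 names 4 had rows, miR-142, miR-155, miR-223 and miR-451, which summed to 0.225% and 0.171% of reads at stage 11.5 and to 0.0192% and 0.0191% at stage 26; miR-144 and miR-150 had no row here. Most of the early sum was miR-155, at 1985 and 1612 CPM early and at 0 and 23.9 CPM late. miR-223 was at 132 and 32.9 CPM early and at 128 and 143 CPM late. miR-451 was at 88.2 and 65.8 CPM early and at 64.0 and 23.9 CPM late. miR-142 was at 44.1 and 0 CPM early and at 0 late. In share miR-223 thus did not fall with the others. After scaling, the pooled ratio of stage 26 over stage 11.5 was 0.0016 for miR-155 and 0.151 for miR-451 (interval 0.0281 to 0.809). For miR-223 it was 0.452, with an interval of 0.137 to 1.92 that included no change. miR-142, with 1 early read and no late read, has no such ratio. The part of blood cells in the levels of miR-146b and miR-181b was not tested.

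miR-215, which shares its seed with miR-192 and is known in mammals from gut, liver and kidney and as a p53 target in human cells, had no read in either library of stage 11.5. At stage 26 it reached 1216 and 1576 CPM (57 and 66 reads). Counts of 0 in the early libraries allow up to 163 and 121 CPM, the upper ends of their exact intervals. Against 3 assumed early reads, its bound was 24.7-fold in share, 6.20-fold after scaling and 4.24-fold on totals without miR-427. Its level overlapped that of miR-181b at stage 26. The endoderm and liver list of 7 names holds miR-215 itself. Of its other names miR-192 and miR-375 had rows, which summed without miR-215 to 0.110% and 0.0329% of reads at stage 11.5 and to 0.181% and 0.122% at stage 26, nearly all of it miR-375. After scaling, the pooled ratio of miR-375 was instead under no change, at 0.581 (interval 0.398 to 0.869). Its early libraries differed by 3.35-fold, which that interval does not cover. miR-122, the defining miRNA of liver, had no row here, and miR-192 had 1 read in all. The part of endoderm in the level of miR-215 was not tested.

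miR-193 was the one member whose shares overlapped between the stages. In human cancer cells miR-193 is known as a growth suppressor. It stood at 706 and 460 CPM (16 and 14 reads) in the early libraries and at 746 and 597 CPM (35 and 25 reads) in the late ones. The fold was 1.15 in share. After scaling it was lower at stage 26 by 3.61-fold with no overlap (scaled fold 0.277, 0.184 to 0.453 over the 4 pairs). The overlapping shares gave no direction, so the lower level depends on the scaling. On totals without miR-427 it was lower by 5.54-fold. It went from rank 30 to rank 35 of the 98. In human, miR-193 genes lie beside miR-365 genes. miR-365, named here after its values were seen, was at 0 in both early libraries and at 85.3 and 119 CPM at stage 26.

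miR-107, known from an intron of the pantothenate kinase gene Pank1 in mammals, was at 0 in both early libraries. At stage 26 it was at 448 and 478 CPM (21 and 20 reads). Its bound was 8.19-fold in share and 2.06-fold by scaled values. On totals without miR-427 the bound was 1.40. That bound moves with the early depth: without library b of stage 11.5 the scaled log2 bound was -0.36, which gives no direction.

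miR-191, expressed broadly in human tissues, was at 132 and 32.9 CPM (3 reads and 1 read) in the early libraries. At stage 26 it was at 426.5 and 430 CPM (20 and 18 reads). The late libraries agree within 1.01-fold, while the early ones differed by 4.02-fold. Its fold was 5.18 in share and 1.20 after scaling, where the stages overlapped (0.707 to 3.63 over the 4 pairs). On totals without miR-427 the fold was 0.763, where the stages also overlapped (0.448 to 2.56 over the 4 pairs). Neither value gives a direction. The pooled scaled ratio of 1.43 had an interval of 0.516 to 5.52, so no scaled difference was detectable at this depth. In human, miR-191 and miR-425 come from neighbouring hairpins. miR-425-5p, named after its values were seen, had 1 read in library b of stage 11.5 and none elsewhere.

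miR-22* is the product of the hairpin arm that older naming marks with an asterisk as the minor one, opposite to miR-22, which is known from mouse heart and muscle. It had no read at stage 11.5 and stood at 384 and 525 CPM (18 and 22 reads) in the late libraries. Its bound was 8.04-fold in share, 2.02-fold by scaled values and 1.38-fold on totals without miR-427. Without library b of stage 11.5 the scaled log2 bound was -0.39, again with no direction. miR-107, miR-22* and miR-191 formed the low end of the group at stage 26, where miR-22* overlapped both of the others and miR-107 lay above miR-191 in both libraries.

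Ratios between miRNAs of one library do not depend on any scaling, so each miRNA was also set against miR-26, the one with the most reads. This comparison was chosen after the values were seen. miR-193 was 39.0% and 30.4% of miR-26 in the early libraries and 7.31% and 4.64% in the late ones. It was therefore 5.81-fold lower relative to miR-26 at stage 26, with the 4 pairs of libraries between 0.119 and 0.240 of the early ratio. miR-146b was 29.3% and 26.1% of miR-26 at stage 11.5 and 40.9% and 39.9% at stage 26. The libraries did not overlap, at a fold of 1.46, but the interval of the pooled ratio, 0.970 to 2.31, included no change.

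For miR-181b the ratio to miR-26 was 9.76% and 13.0% in the early libraries and 13.6% and 12.2% at stage 26, which overlapped (fold 1.13, with a pooled interval of 0.590 to 2.39). For miR-191 it was 7.32% and 2.17% at stage 11.5 and 4.18% and 3.34% at stage 26, again overlapping. In the early libraries together, 3 reads are 3.45% of miR-26. miR-215, at 11.9% and 12.2% of miR-26 at stage 26, had a bound of 3.50-fold relative to it. miR-107 and miR-22*, at means of 4.05% and 3.92%, were close to that value, with bounds of 1.17-fold and 1.14-fold.

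**Figure D3:**
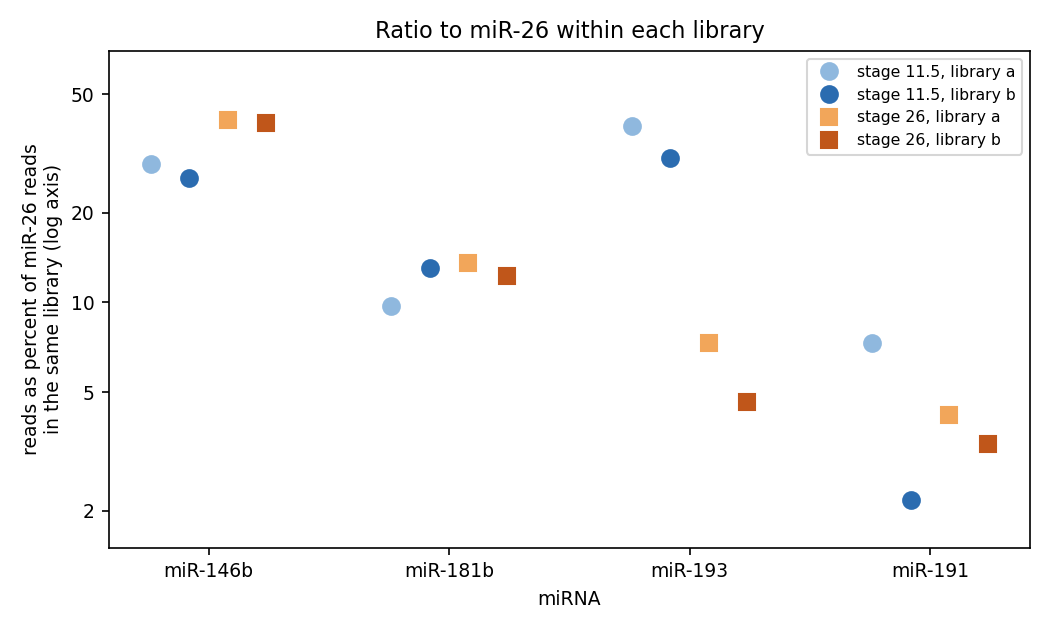
Reads of the 4 miRNAs seen at both stages as percent of miR-26 reads of the same library, on a log axis, with circles for the 2 libraries of stage 11.5 and squares for the 2 of stage 26. miR-193 lies at 39.0% and 30.4% early and at 7.31% and 4.64% late, miR-146b lies higher at stage 26, and miR-181b and miR-191 overlap.

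Partner rows with the seed of a member show which of near-identical sequences took the reads. There were 4 such partners among the listed miRNAs, none of them a member, and they are shown with miR-22, the opposite arm of miR-22*.
miR-103: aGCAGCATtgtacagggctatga
miR-181a: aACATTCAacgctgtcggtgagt
miR-146: tGAGAACTgaattccataggtt
miR-192: aTGACCTAtgaattgacagcc
miR-22: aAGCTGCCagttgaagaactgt

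Positions are counted from 1 at the 5′ end, with the base of the member first. miR-103 differs from miR-107 by C22G, and miR-192 from miR-215 by A13T. miR-146 differs from miR-146b by G18A, A20G and C21T, and miR-181a differs from miR-181b by T9A, T10C and G21A and is 23 bases long against 22. All of these lie outside the seed. As the mismatches allowed in mapping are not stated in what was used here, reads could have been shared between rows that differ by a single base. miR-93b, which is miR-93a without its first base, had nearly equal reads in every library, such as 379 for each in library b of stage 11.5. miR-29a and miR-29c, which differ by a last base, had equal reads in every library. Whether reads were counted in both rows was not tested, and library totals would then repeat them.

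miR-103 was at 171 and 167 CPM in the late libraries, against 448 and 478 CPM for miR-107, so that miR-107 had 2.63 and 2.86 times its reads. At stage 11.5 miR-103 had 1 read and miR-107 none. The pair belongs to a wider group through the 7-base stretch AGCAGCA, at bases 1 to 7 of both and at bases 2 to 8 of miR-16b and miR-16c, which are known in mammals for restraining the cell cycle. miR-16c was at 85.3 and 119 CPM at stage 26 and miR-16b at 0, so that miR-107 was the highest row with this stretch in both late libraries. The rule largely fixed this order too, since miR-103, miR-16b and miR-16c were outside the families left out and missed the level.

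miR-146 was at 191.9 and 478 CPM in the late libraries, and miR-146b had 21.8 and 10.75 times its reads there. miR-181a was at 171 and 239 CPM at stage 26, and miR-181b had 8.13 and 6.60 times its reads. miR-192 had 1 read in library a of stage 26 and none in b, against 57 and 66 reads of miR-215, which differs from it by a single base. In each of these seed pairs the member took most of the late reads in both libraries, an order that the rule largely fixed, since each member reached 300 CPM in both late libraries and no partner did so in both. At stage 11.5 the partners had at most 1 read each, against 10 reads of miR-181b, 24 of miR-146b and none of miR-107 or miR-215.

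miR-22* had 18 reads in library a of stage 26 and 22 in library b, whereas miR-22 had 9 and 11. The arm marked as minor thus had 2.00 times the reads of the other in both libraries. The rule took miR-22* for reaching 300 CPM and not miR-22, so this order is a description of the values it selected on. The 2 arms have different seeds, and bases 1 to 9 of miR-22* are the reverse complement of bases 12 to 20 of miR-22. The table holds both arms of 2 further hairpins. miR-18a* was at 64.0 and 71.6 CPM at stage 26 against 54658 and 60437 CPM for miR-18a, and miR-363-5p was at 0 there against 533 and 669 CPM for miR-363-3p.

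**Figure D4:**
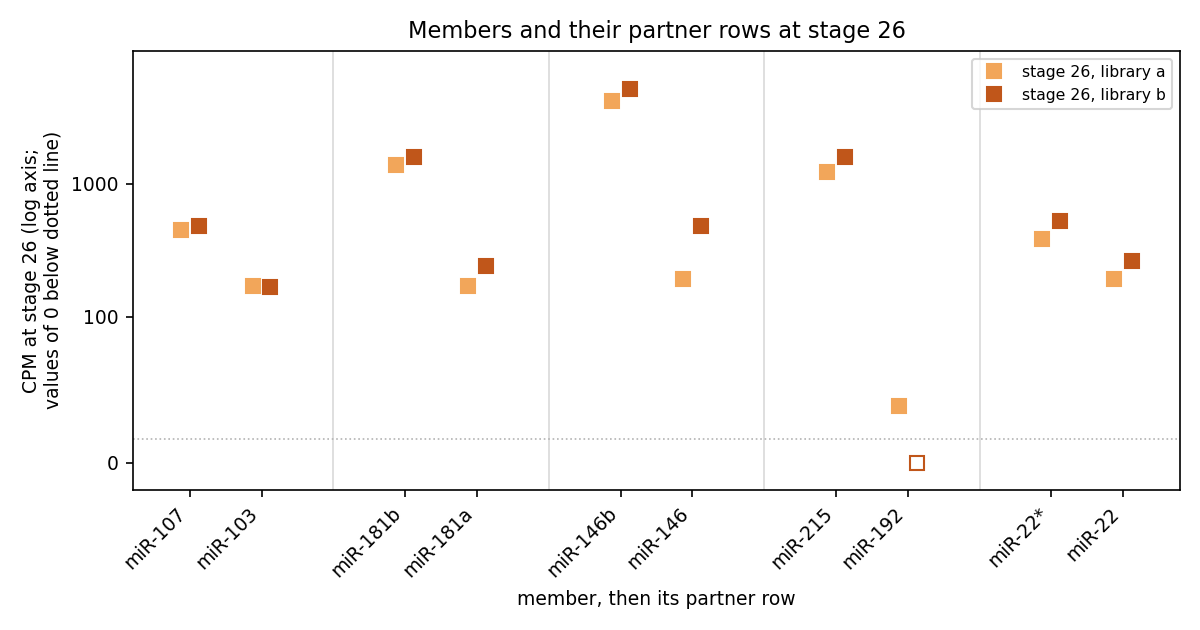
Level at stage 26 of 5 members and of their partner rows, in CPM on a log axis, with light squares for library a, dark squares for library b and an open square for a value of 0. Each member lies above its partner in both libraries, which the level of the rule largely fixed, by the least for miR-22* over miR-22 (2.00-fold) and by the most for miR-215 over miR-192.

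Around the level of the rule the nearest member was miR-22*, with 384 CPM in the lower of its late libraries, followed by miR-191 with 426.5 CPM and miR-107 with 448 CPM. Just outside were miR-140 with 263 CPM in the lower late library and 533 CPM in the other, and miR-22 and miR-146, both with 191.9 CPM in the lower. All 3 were at 0 in both libraries of stage 11.5.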

How the data were processed

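Small RNA libraries were made with the SREK kit (Ambion), per the labels' protocols; aligner, mismatches and miRNA database release were not given in the sources used here. Values deposited by the authors are CPM, with each column summing to 1000000 over 98 listed miRNAs. Divided by the smallest nonzero value of their column, all values came out whole (100% of values, tolerance 1e-06), so this value was taken as 1 read, from 98 values a column, too few for an independent check of that step. Reads, floors and intervals are conditional on it, and no count test was run. Totals were 22668 to 46892 reads. Floors, intervals and TMM factors rest on these reads.

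From these, Python 3.11.15 (numpy 2.4.6, scipy 1.17.1) computed TMM factors over all rows, stage means, SDs, folds over library pairs, and exact 95% intervals. TMM trimmed 30% of M and 5% of A values from either end. It was checked only on simulated data with as many rows raised as lowered, so uneven changes were not covered. No low-level filter, pseudocount or test was used in the main values. All 8 members were named, with rows sharing a seed and the nearest rows under the level. The members and lists were chosen with earlier results of these data known. Alternatives covered scaling, reference library, fold, pseudocount, level, summed rows and each library left out. Libraries were grouped by title. Genomic positions were not used here.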

Additional observations from a re-analysis of the deposited data

How the results depend on the processing

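The number of members at least 2-fold higher at stage 26, 4 as reported, was 7 in deposited CPM, 1 on totals without miR-427, 1 at a 4-fold limit, 2 at a level of 500 CPM and 6 with relative log expression factors. With another library as TMM reference, chosen after seeing the data, it was 2 (stage 11.5 a), 6 (stage 11.5 b) and 5 (stage 26 b). It ran from 1 to 6 with a library left out. The number at least 2-fold lower, 1 as reported, was 0 in deposited CPM and 0 at a 4-fold limit. miR-215 was at least 2-fold higher in all of these alternatives, and miR-193 was the lower member in all but those 2. The log2 fold of miR-193 was 0.20 in deposited CPM against -1.85 after scaling, which follows from the stage shift that TMM applies. With a library left out, the log2 bounds ran from -0.36 to 1.16 for miR-107 and from -0.39 to 1.26 for miR-22*. The lowest values came without library b of stage 11.5, where 3 reads are a larger share and a bound under 0 gives no direction. The summed share at stage 11.5, 0.298% as reported, was 2.03% on totals without miR-427. The letters a and b name technical replicates of the same pool within a stage. The stages were separate pools, so no libraries were paired across stages. Values of 0 to 3 reads at stage 11.5 limit miR-215, miR-107, miR-22* and miR-191 most.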

Other observations

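The 19 miRNAs that lay outside the families left out but under the level were mostly seen at stage 26. Of these, 15 had no read in either library of stage 11.5, and the other 4 (miR-103, miR-181a, miR-425-5p and miR-16b) had 1 read each there. Above 0 in both late libraries and at 0 in both early ones were 13, and 10 of the 19 reached 100 CPM in both late libraries. Of all 98 listed miRNAs, 53 and 52 had reads in the early libraries and 87 and 83 in the late ones. The 19 were taken for a low level, and miR-427 held 84.4% of the early reads. Their early zeros therefore do not by themselves show a change between stages. miR-140, known from cartilage in mouse and zebrafish, was at 533 and 263 CPM in libraries a and b of stage 26. miR-210, known in mammals as a hypoxia-induced miRNA, was at 299 and 191 CPM. miR-196a and miR-196b, encoded in Hox clusters, were at 106.6 and 310 CPM and at 106.6 and 143.3 CPM, so that the libraries of one stage differed by 2.91-fold for miR-196a. miR-101a was at 149 and 191 CPM, miR-139 at 171 and 239 CPM. These values rest on 5 to 25 reads per library, and early reads were too few to give a scaled change.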
